A study of Schizosaccharomyces pombe with 18 samples.

Results

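The thiamine-regulated genes of the fission yeast *Schizosaccharomyces pombe* described here were *nmt1*, *thi2*, *thi4*, *thi1*, *thi9* and *pho4*. They were taken by symbol from the annotation of the array, with no measured value in the rule, and all 6 of 6 listed genes had a named probe set among 2937 named *S. pombe* probe sets. The set was picked because the *nmt1* promoter drives many fission yeast expression plasmids, together with other genes of thiamine use.

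RNA was measured on 18 Affymetrix yeast arrays, 3 for each of 6 groups, each array from a biological replicate of its own by the labels. WT cells were strain SP-Q01 with the empty vector pESP3. Cells labelled *rpl32-1* or *rpl32-2* were SP-Q01 with pESP3 carrying RPL3201 or RPL3202, the paralogous genes of ribosomal protein L32, for overexpression. All cells grew in EMM2, a defined minimal medium, to an OD600 of 0.5 (log phase) or of 10 (early stationary phase). The host strain Q01 of the study is *h- leu1-32*, so all groups share the leucine mutation and a plasmid. The labels name pESP3 for these cells while the study's methods describe overexpression from pREP3X, so which of these plasmids the cells carried was not settled. The labels name no thiamine added to the medium and no group grown with it. The groups therefore show how these genes behaved with growth phase and between cells with different plasmid labels, not how they respond to thiamine.

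Fission yeast makes thiamine (vitamin B1) from a pyrimidine and a thiazole unit, joins them and activates the product to thiamine diphosphate, the cofactor of pyruvate dehydrogenase and several other carbon enzymes. When thiamine is present in the medium the cells take it up and strongly repress the genes of the pathway. When it is absent these genes are on, which is why *nmt1* ("no message in thiamine") became the standard switch for expression plasmids in this organism. Names differ between yeasts: the *thi4* and *pho4* genes of fission yeast are not the counterparts of THI4 and PHO4 of *Saccharomyces cerevisiae*.

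Unless said to be as deposited, levels are log2 values after the 2937 *S. pombe* probe sets of each array were quantile-normalized, and a difference of 1 is 2-fold. As deposited, the array medians ran from 8.55 to 10.61, and by their distributions the arrays formed 5 sets that did not follow the groups. The log phase arrays labelled *rpl32-1* (sets 1, 4 and 3) and the early stationary phase arrays labelled *rpl32-1* (sets 2, 5 and 5) shared no set. The phase change in cells labelled *rpl32-1* is therefore also a change between sets. A gene was called where limma's two-sided test gave a Benjamini-Hochberg adjusted p under 0.05 over all 2937 probe sets and the change was at least 2-fold. The *rpl3201* level in cells labelled *rpl32-1* was 14.18, 14.11 and 14.37 for log phase, against 13.54, 13.58 and 14.37 in WT cells, and 14.25, 13.55 and 11.68 for early stationary phase, against 13.48, 13.61 and 14.29. On those labelled *rpl32-2*, *rpl3202* stood at 13.79, 10.88 and 8.40 for log phase and at 13.46, 8.80 and 7.72 for early stationary phase, against 13.50 to 13.78 in WT cells. The level of *rpl3202* therefore went against the overexpression label on 4 of these 6 arrays and was close to the WT level on the others. It was also low, at 8.96, on early stationary phase array 3 labelled *rpl32-1*, where arrays 1 and 2 of that group were at 13.55 and 13.63, so the groups are written as labelled. By QPCR the paper reported each paralog raised above WT cells in the cells named for it, in both phases, and the mRNA of the other paralog lowered. Whether these probe sets read RNA from a plasmid was not tested. The *rpl3201* probe set was already bright in WT cells, at 13.48 to 14.37, and near the top of an array a further rise shows less. LEU2 of *S. cerevisiae*, the usual plasmid marker that complements *leu1*, was the brightest *S. cerevisiae* probe set on all 18 arrays, at 11.43 to 13.35 as deposited.

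Between log and early stationary phase of WT cells, 2 of the 6 genes fell with a call, as did 9.09% of all 2937 probe sets. These were *pho4*, a secreted acid phosphatase that thiamine represses, by 2.69 (6.45-fold), and *thi4*, the enzyme that joins the pyrimidine and thiazole units, by 1.49 (2.81-fold). The genes that make these units, *nmt1* and *thi2*, stayed among the brightest probe sets of every array, and the transcription factor gene *thi1* and the transporter gene *thi9* did not pass the test. In RNA of whole cultures, fewer cells that express a gene and less of its RNA per cell cannot be told apart.

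**Figure D1:**
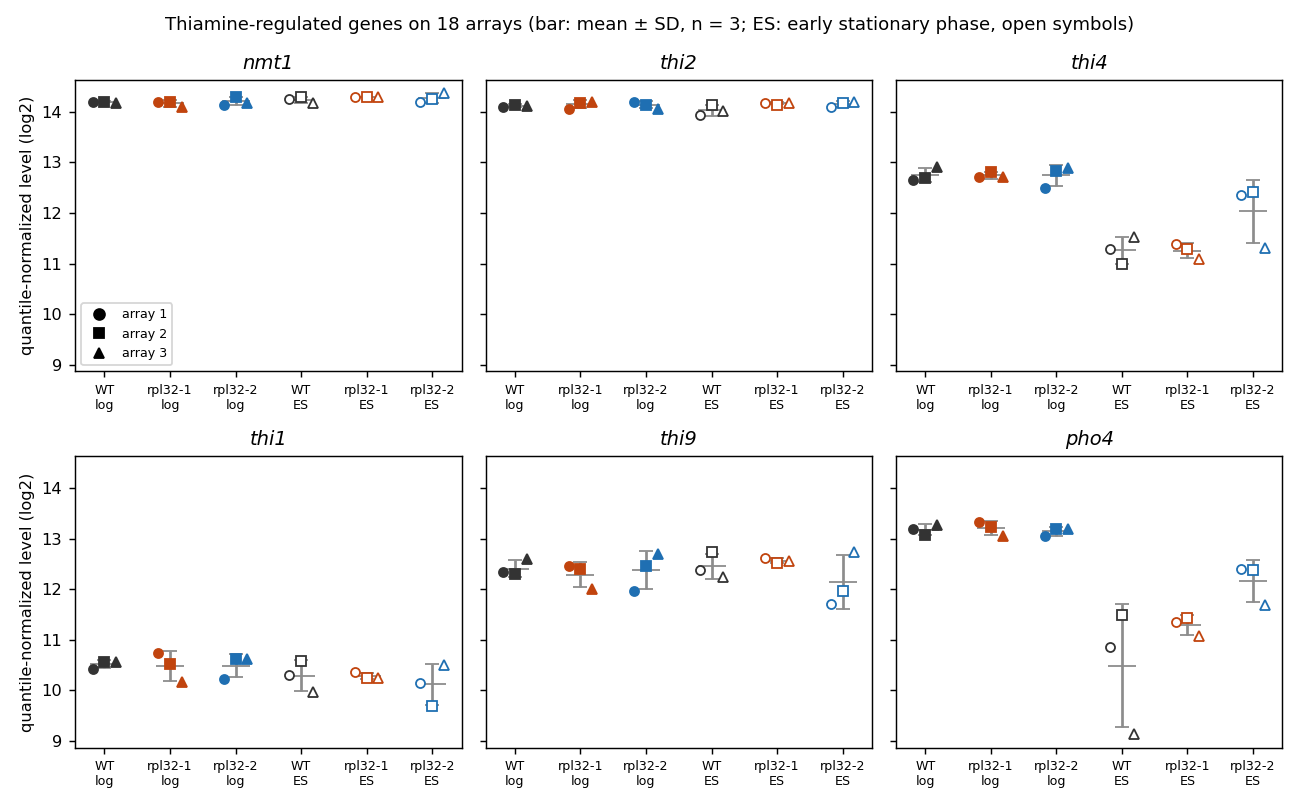
Level of each of the 6 genes on each of the 18 arrays (y axis, log2 after quantile normalization; x axis, the 6 groups, with ES for early stationary phase and open symbols). Symbols mark arrays 1, 2 and 3 of a group, and bars give mean ± SD (n = 3): *nmt1* and *thi2* lie near 14 throughout, *thi4* and *pho4* are lower in early stationary phase, and array 3 labelled *rpl32-2* lies apart from arrays 1 and 2 for *thi4*.

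*nmt1* (SPCC1223.02) encodes the enzyme that makes the pyrimidine unit. WT log phase arrays gave 14.20, 14.20 and 14.18, and WT early stationary phase arrays 14.25, 14.29 and 14.18. Cells labelled *rpl32-1* gave 14.20, 14.20 and 14.09 for log phase and 14.29 on each early stationary phase array. Those labelled *rpl32-2* gave 14.14, 14.29 and 14.18, then 14.20, 14.25 and 14.37 for early stationary phase. All 18 values lie within 0.28, a range smaller than that of all but 0.647% of the *S. pombe* probe sets, whose median range was 1.39. As deposited, *nmt1* ranked between 1 and 8 among the 2937 probe sets on every array and lay at most 0.47 below the brightest one. The 95% intervals of its phase change were −0.15 to 0.24 in WT cells, −0.07 to 0.32 in cells labelled *rpl32-1* and −0.13 to 0.26 in cells labelled *rpl32-2* (limma adjusted p = 0.724, 0.263 and 0.614). In cells labelled *rpl32-1* the early stationary phase arrays did lie above the log phase arrays without overlap, as 27.6% of all probe sets did in that direction.

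*thi2* (SPBC26H8.01, also called nmt2) makes the thiazole unit and is the counterpart of budding yeast THI4. Its level was 14.09, 14.14 and 14.11 in WT log phase and 13.93, 14.14 and 14.01 in WT early stationary phase, and the groups overlapped. Over the other 12 arrays it ran from 14.06 to 14.20. It ranked between 4 and 16 on every array and its whole range was 0.27, with a WT phase change of −0.09 (95% interval −0.29 to 0.11, adjusted p = 0.467).

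The small ranges of these genes have a limit. A probe set at the top of an array can take only the few values that quantile normalization assigns to the highest ranks, and a probe set near the top of the scanner's range shows less of a further rise. As deposited, *nmt1* ran from 13.79 to 14.71. Within the sets of arrays that share a distribution, the 19 pairs of an early stationary and a log phase array differed by between −0.00 and 0.27 for *nmt1*. Whether the *nmt1* probe set also reads RNA from *nmt1* sequences on a plasmid was not tested.

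*thi4* (SPAC23H4.10c) was the member of the synthesis pathway that fell with growth phase. Its level was 12.66, 12.69 and 12.91 in WT log phase and 11.28, 10.99 and 11.52 in WT early stationary phase. For cells labelled *rpl32-1* it was 12.71, 12.81 and 12.70, then 11.38, 11.29 and 11.08 for early stationary phase. In both, every early stationary phase array lay below every log phase array, by over 1 log2 unit between the nearest arrays. With a gap of any size, 32.6% of all probe sets in WT cells and 35.2% in cells labelled *rpl32-1* did so. The change was −1.49 in each (SE 0.24, 95% interval −2.0 to −0.98, adjusted p = 2.1e-04 in WT cells and 1.6e-04 in cells labelled *rpl32-1*). For cells labelled *rpl32-2* it was 12.50, 12.83 and 12.89, then 12.36, 12.42 and 11.30 for early stationary phase. There, arrays 1 and 2 lay just below the log phase arrays and array 3 lay with the early stationary phase arrays of the other strains. The change was −0.71 (SE 0.24, 95% interval −1.22 to −0.20, adjusted p = 0.0313), under 2-fold and so not called, and −0.35 without array 3.

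*pho4* (SPBC428.03c) had the largest change of the 6 genes. Its level was 13.20, 13.08 and 13.27 in WT log phase, and 10.85, 11.50 and 9.13 in WT early stationary phase. For cells labelled *rpl32-1* it was 13.33, 13.24 and 13.05, then 11.36, 11.44 and 11.07 for early stationary phase. All 9 log phase arrays of the 3 strains lay within 13.05 to 13.33, above all 9 early stationary phase arrays. Within single strains, 32.6% (WT), 35.2% (*rpl32-1*) and 25.5% (*rpl32-2*) of all probe sets were lower without overlap. How many of all probe sets separate the 9 arrays of each phase in this way was not counted. The change was −2.69 in WT cells (SE 0.40, 95% interval −3.55 to −1.83, adjusted p = 1.4e-04), which ranks 10 of 2937 from the lowest, and −1.92 in cells labelled *rpl32-1* (SE 0.40, adjusted p = 0.00132). For cells labelled *rpl32-2* it was 13.05, 13.20 and 13.19, then 12.41, 12.38 and 11.69 for early stationary phase, a change of −0.98 (SE 0.40, 95% interval −1.85 to −0.12, adjusted p = 0.0719).

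WT early stationary phase array 3 carries much of the spread of *pho4*. That array had 21.7% of its fission yeast probe sets no brighter than background, taken as the 95th percentile of its *S. cerevisiae* probe sets, where all arrays but it and array 3 labelled *rpl32-1* in log phase (18.7%) had 0.715% to 4.70%. As deposited, *pho4* was there at 7.10, which is 0.71 above background. Without that array the WT change of *pho4* was −2.01 and that of *thi4* −1.62, both called (adjusted p = 3.5e-05 and 3.9e-04).

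The 2 genes called lower of 6 in WT cells stand beside 9.09% of all 2937 probe sets called lower in that comparison, and the same 2 genes in cells labelled *rpl32-1* beside 11.1%. In cells labelled *rpl32-2* 0 of 6 genes were called, beside 6.09% called lower and 5.72% called higher. Without overlap between the phases, *thi4* and *pho4* were lower in all 3 strains, as were 32.6%, 35.2% and 25.5% of all probe sets in WT cells and in cells labelled *rpl32-1* and *rpl32-2*. The median change of the 6 genes was −0.16 in WT cells, against −0.07 over all probe sets. Averaged over the strains, *pho4* changed by −1.86 (SE 0.23, adjusted p = 6.2e-06) and *thi4* by −1.23 (SE 0.14, adjusted p = 2.1e-06), beside 8.21% of all probe sets called lower. *thi4* lost its WT call in the deposited values (−1.92, SE 0.51, adjusted p = 0.0684), and in cells labelled *rpl32-1* both genes did, at −1.82 for *thi4* (adjusted p = 0.0552) and −2.30 for *pho4* (adjusted p = 0.127). When the 5 array sets entered the fit as a block, *thi4* changed by −0.82 in cells labelled *rpl32-1* (adjusted p = 0.0598) and by −1.20 in cells labelled *rpl32-2* (adjusted p = 0.0076, called).

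**Figure D2:**
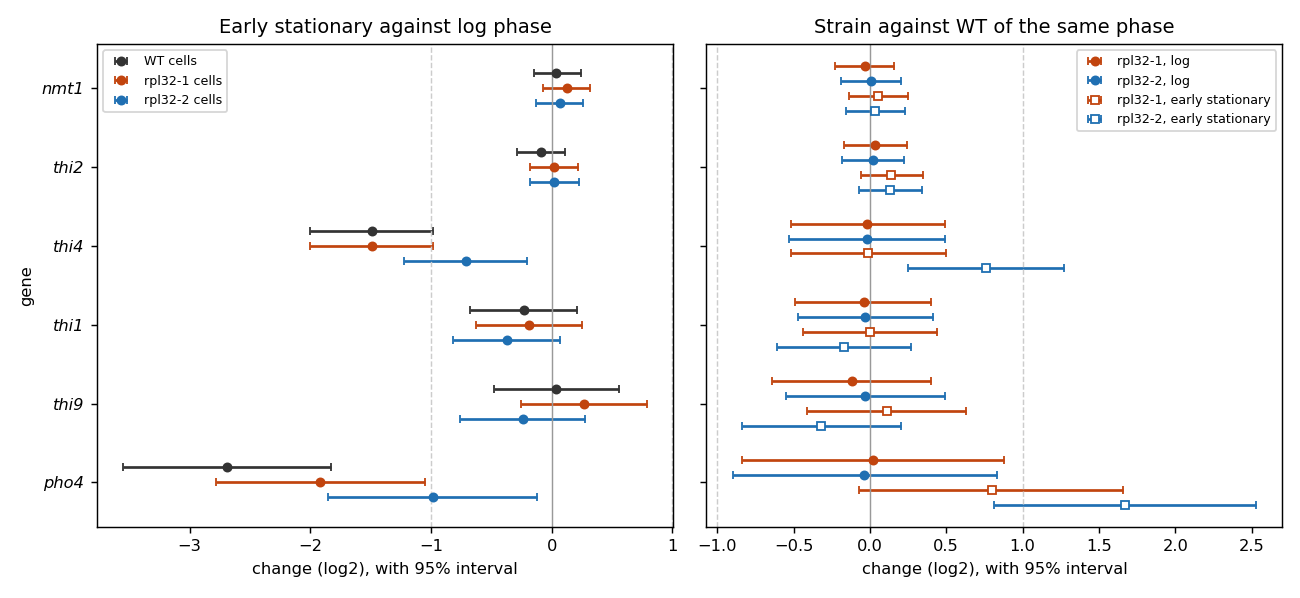
Change of each gene between phases within each strain (left) and between strains within a phase (right), in log2 units with 95% intervals from limma. Dashed lines mark 2-fold: *thi4* and *pho4* lie to the left of zero in all 3 strains, and the intervals of *nmt1*, *thi2*, *thi1* and *thi9* include zero in every comparison shown.

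The fall of *thi4* and *pho4* was also seen between arrays of 1 set, where the deposited values can be compared without normalization. The 5 sets gave 19 pairs of an early stationary and a log phase array, which share arrays and mostly cross strains, so they have no test. No pair had both arrays labelled *rpl32-1*. *thi4* was lower in 19 of 19 pairs, with differences from −0.31 to −1.92, and *pho4* in 19 of 19 pairs, with differences from −0.84 to −5.35. The difference of −5.35 came from the pair with WT early stationary phase array 3, where *pho4* was at 7.10. In 16 of these pairs the difference was at least 2-fold for each gene. The median difference of all probe sets in a pair ran from −0.31 to 0.14. How many of all probe sets were lower in every pair was not counted. The 3 remaining pairs were, for both genes, those with early stationary phase arrays 1 and 2 labelled *rpl32-2*.

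**Figure D3:**
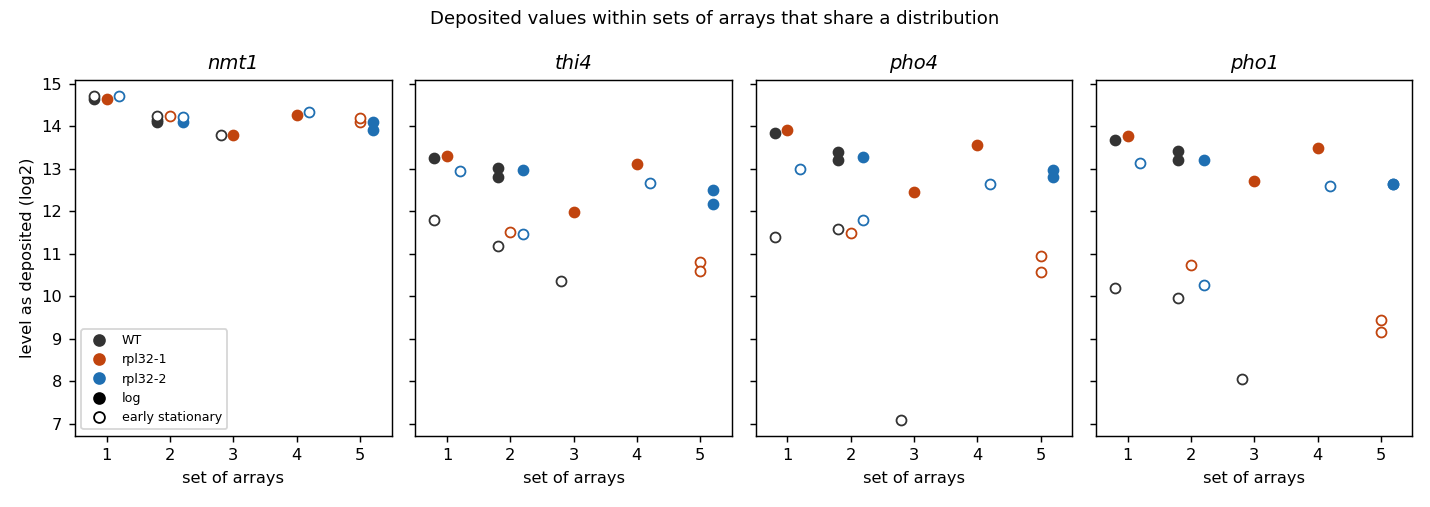
Deposited log2 level of *nmt1*, *thi4*, *pho4* and *pho1* (y axis) on each array, by set of arrays with a shared distribution (x axis, sets 1 to 5). Within a set, open circles (early stationary phase) lie below filled circles (log phase) for *thi4*, *pho4* and *pho1*, while *nmt1* differs by at most 0.27 between phases.

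*thi1* (SPAC1486.10) encodes the zinc finger transcription factor that is needed to switch on *nmt1* and other thiamine genes. WT cells gave 10.43, 10.56 and 10.57 for log phase, then 10.31, 10.58 and 9.96 for early stationary phase. Arrays labelled *rpl32-1* gave 10.75, 10.52 and 10.16, then 10.36, 10.25 and 10.25, and arrays labelled *rpl32-2* gave 10.22, 10.62 and 10.63, then 10.15, 9.70 and 10.50. The phases overlapped in every strain. The changes were −0.23 in WT cells (95% interval −0.68 to 0.21, adjusted p = 0.385), −0.19 in cells labelled *rpl32-1* and −0.37 in cells labelled *rpl32-2*, and their average was −0.27 (SE 0.12, adjusted p = 0.064).

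*thi9* (SPAC9.10) encodes the plasma membrane transporter that takes up thiamine. WT cells gave 12.34, 12.30 and 12.60 for log phase, then 12.38, 12.73 and 12.25 for early stationary phase. Arrays labelled *rpl32-1* gave 12.46, 12.40 and 12, then 12.61, 12.52 and 12.55, and arrays labelled *rpl32-2* gave 11.97, 12.46 and 12.70, then 11.70, 11.97 and 12.74. Its WT phase change was 0.04 (95% interval −0.48 to 0.56, adjusted p = 0.908). The early stationary phase arrays labelled *rpl32-1* lay above the log phase arrays without overlap, as for *nmt1* and 27.6% of all probe sets. The change there was 0.27 (95% interval −0.25 to 0.79, adjusted p = 0.363). The spread was widest on the arrays labelled *rpl32-2*, where array 3 lay highest in both phases.

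The groups were also put in the order of their means. For *nmt1*, *thi2*, *thi1* and *thi9* no neighbouring groups in the order were free of overlap. For *thi4* the 3 log phase groups came first, at 12.75, 12.74 and 12.74, and the step from there to early stationary phase cells labelled *rpl32-2*, at 12.03 ± 0.63 (SD, n = 3), was the one step without overlap. WT early stationary phase cells, at 11.26 ± 0.27, and cells labelled *rpl32-1*, at 11.25 ± 0.15, followed. For *pho4* the log phase groups at 13.21, 13.18 and 13.15 were followed without overlap by early stationary phase cells labelled *rpl32-2* at 12.16 ± 0.41. Cells labelled *rpl32-1*, at 11.29 ± 0.20, came next, also without overlap, and WT cells, at 10.49 ± 1.22, were last and overlapped with them. From log to early stationary phase, 25.5% of all probe sets fell without overlap in cells labelled *rpl32-2*. In early stationary phase, 7.59% lay lower without overlap in cells labelled *rpl32-1* than in those labelled *rpl32-2*.

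The comparisons between strains set cells with different plasmid labels side by side at a given phase. The levels of the *rpl3201* and *rpl3202* probe sets often did not follow the labels, and whether they read plasmid RNA was not tested. From these arrays alone, the comparisons cannot show what the paralogs themselves did. In log phase no difference was detected: the changes of all 6 genes against WT cells were between −0.12 and 0.03, and the intervals were widest for *pho4*, from −0.84 to 0.88 in cells labelled *rpl32-1* and from −0.90 to 0.83 in cells labelled *rpl32-2*. That width comes from a spread pooled over all 6 groups, which enters every SE of *pho4*. Its SD in log phase was 0.10 (WT), 0.14 (*rpl32-1*) and 0.09 (*rpl32-2*), against 1.22 in WT early stationary phase. No probe set was called in either log phase comparison with WT cells (0 of 2937 by limma, with 179 probe sets at an unadjusted p under 0.05 for *rpl32-1* and 81 for *rpl32-2*; the methods' t-test called 10 and 65). In early stationary phase cells labelled *rpl32-1*, 5 of the 6 genes lay within 0.14 of WT cells and *pho4* was 0.80 higher (95% interval −0.07 to 1.66, adjusted p = 0.927). That difference was 0.11 without WT early stationary phase array 3 and 1.30 without array 2. Again 0 probe sets were called by limma, with 118 at an unadjusted p under 0.05 and 0 called by the methods' t-test.

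In early stationary phase cells labelled *rpl32-2*, *pho4* was 1.67 higher than in WT cells (SE 0.40, 95% interval 0.81 to 2.53) and *thi4* 0.76 higher (SE 0.24, 95% interval 0.25 to 1.27). Neither passed the test over all probe sets (adjusted p = 0.0962 and 0.112), and limma called 0 of 2937 probe sets, with 616 at an unadjusted p under 0.05 and 9 called by the methods' t-test. The other 4 genes differed by between −0.32 and 0.13, with adjusted p from 0.433 to 0.847. *pho4* was the one gene of the 6 whose arrays did not overlap between these groups, as in 5.82% of all probe sets in that direction. Against cells labelled *rpl32-1* of the same phase the values were turned round: for *rpl32-1* minus *rpl32-2* they were −0.87 for *pho4* (adjusted p = 0.296) and −0.78 for *thi4* (adjusted p = 0.148), with no overlap for *pho4*, as in 7.59% of all probe sets in that direction. These comparisons share the early stationary phase arrays labelled *rpl32-2*, so they are not independent.

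These values moved with single arrays, that of *thi4* most with array 3 labelled *rpl32-2* and that of *pho4* most with WT array 3. Measured from the WT early stationary phase mean, *thi4* lay 1.10, 1.15 and 0.04 higher on arrays 1, 2 and 3. Without array 3, *thi4* was 1.13 higher than in WT cells and *pho4* 1.90 higher, and both were called (adjusted p = 5.6e-04 and 0.00915). Without WT early stationary phase array 2, *pho4* was 2.17 higher and called (adjusted p = 0.0177), and without WT array 3 it was 0.99 higher (adjusted p = 0.217). On the 3 early stationary phase arrays labelled *rpl32-2*, *rpl3202* itself was at 13.46, 8.80 and 7.72, and arrays 1 and 2, alike for *thi4*, differed for the gene named on the plasmid. The array weights of limma were 0.792, 4.16 and 0.164 for these arrays, and the part of array quality in the split was not tested.

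The phase changes of cells labelled *rpl32-2* and WT cells were also set against each other in the same fit. They differed by 1.7 for *pho4* (SE 0.57, 95% interval 0.48 to 2.92, adjusted p = 0.376) and by 0.78 for *thi4* (SE 0.34, 95% interval 0.06 to 1.5, adjusted p = 0.390), and limma called 0 probe sets, with 359 at an unadjusted p under 0.05. Without early stationary phase array 3 labelled *rpl32-2* the difference of *thi4* was 1.14 and called (adjusted p = 0.00913), and without WT early stationary phase array 3 that of *pho4* was 1.02. With array weights both were called, at 1.49 for *pho4* (adjusted p = 0.0015) and 1.13 for *thi4* (adjusted p = 0.00208). The weights called 217 probe sets in all for this difference, where equal weights called 0, so these calls were not particular to the 2 genes. For cells labelled *rpl32-1* the differences were 0.77 for *pho4* (95% interval −0.45 to 1.99, adjusted p = 0.729; 0.09 without WT early stationary phase array 3 and 1.27 without array 2) and 0.00 for *thi4* (95% interval −0.72 to 0.72, adjusted p = 0.997). Over all arrays with equal weights, the smaller phase change of *pho4* and *thi4* in cells labelled *rpl32-2* thus did not pass the test against that of WT cells.

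Of 11 further genes listed for thiamine and vitamin B6, 7 were measured. Vitamin B6 belongs to the pathway because pyridoxal phosphate is a substrate of the *nmt1* type of enzyme. In WT cells 0 of the 7 were called, beside 9.74% of all probe sets called higher and 9.09% lower. In cells labelled *rpl32-1* 1 rose and 1 fell with a call, beside 11.7% and 11.1%, and in cells labelled *rpl32-2* 0 were called, beside 5.72% and 6.09%. The gene that rose was *thi5*, which encodes a second transcription factor of the thiamine genes. Its WT level was 10.51, 10.99 and 10.93 for log phase, then 11.08, 11.93 and 11.88 for early stationary phase, a change of 0.82 (SE 0.25, adjusted p = 0.0143) under 2-fold. In cells labelled *rpl32-1* it rose by 1.07 (SE 0.25, adjusted p = 0.00242), and in cells labelled *rpl32-2* it changed by 0.18 (adjusted p = 0.632). Against the WT phase change these differed by 0.25 and −0.65 (adjusted p = 0.865 and 0.419).

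*snz1*, which encodes pyridoxal phosphate synthase, fell with a call in cells labelled *rpl32-1*, by 1.04 (SE 0.10, adjusted p = 2.9e-06). Its WT level was 13.36, 13.48 and 13.49 for log phase, then 12.58, 12.74 and 12.70 for early stationary phase, a change of −0.77 (SE 0.10, adjusted p = 3.9e-05). The WT phases did not overlap, as for 32.6% of all probe sets in that direction. In cells labelled *rpl32-2* it was 13.33, 13.34 and 13.42, then 12.98, 13.10 and 12.97, a change of −0.35. The pyridoxine transporter gene *bsu1* changed by −0.46 in WT cells (SE 0.14, adjusted p = 0.0139) and the pyridoxal reductase gene *plr1* by 0.32 (SE 0.17, adjusted p = 0.126). *tnr3*, which encodes the kinase that makes thiamine diphosphate and represses the thiamine genes, changed by 0.01 (SE 0.14, 95% interval −0.29 to 0.31). The symbols *car1* (0.53, adjusted p = 0.247) and *pdx1* (−0.24, adjusted p = 0.163) were on the list too, but in this annotation they name arginase and a subunit of the pyruvate dehydrogenase complex.

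Enzymes that use thiamine diphosphate were represented by 3 of 11 listed genes. These were *pda1* and *pdb1*, the subunits of pyruvate dehydrogenase that bind the cofactor, and *ilv1*, acetolactate synthase of branched-chain amino acid synthesis. Their WT changes were −0.48 (adjusted p = 0.00405), −0.44 (adjusted p = 0.00496) and −0.35 (adjusted p = 0.0123), all under 2-fold. In each strain 0 of 3 were called, beside 9.09%, 11.1% and 6.09% of all probe sets called lower and 9.74%, 11.7% and 5.72% called higher in WT cells and in cells labelled *rpl32-1* and *rpl32-2*. In all 3 strains the early stationary phase arrays of all 3 genes lay below the log phase arrays, where 32.6%, 35.2% and 25.5% of all probe sets did.

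**Figure D4:**
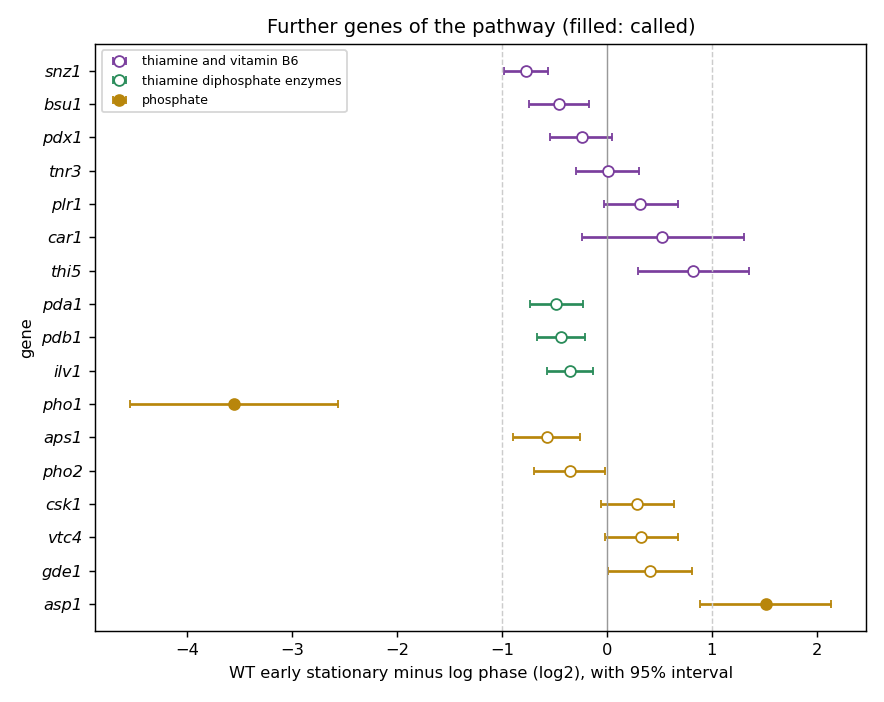
WT phase change (x axis, log2, early stationary minus log phase, with 95% intervals) of the measured further genes, by list in colour; filled circles are called. *pho1* at −3.55 and *asp1* at 1.52 are the called genes, and *car1* and *pdx1* carry symbols that name other enzymes in this annotation.

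*pho4* is an acid phosphatase, so genes of phosphate use were listed beside it, and 7 of 11 were measured. In WT cells 1 was called lower and 1 higher, beside 9.09% and 9.74% of all probe sets. In cells labelled *rpl32-1* 1 was called lower and 2 higher, beside 11.1% and 11.7%, and in cells labelled *rpl32-2* 1 lower and 0 higher, beside 6.09% and 5.72%. The one called lower in each strain carries the array symbol *pho1*, the acid phosphatase that phosphate starvation induces. The gene ID of this probe set now belongs in RefSeq to nc-pho1, a non-coding RNA whose gene overlaps *pho1*, so which of them the probe set reads is not settled. Its level was 13.07, 13.08 and 13.29 in WT log phase and 9.54, 9.60 and 9.65 in WT early stationary phase, a change of −3.55 (SE 0.46, adjusted p = 5.1e-05). In cells labelled *rpl32-1* it changed by −3.20 (adjusted p = 7.1e-05).

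On early stationary phase arrays labelled *rpl32-2* the *pho1* probe set was at 12.56, 12.30 and 9.95, against 12.89, 12.96 and 13.13 in log phase. This is the split seen for *thi4*, with arrays 1 and 2 near log phase and array 3 near the WT early stationary phase level. The change was −1.39 (SE 0.46, adjusted p = 0.0307) and called, but −0.57 without array 3, and the call was also lost without each of the 3 log phase arrays (adjusted p = 0.0631, 0.0718 and 0.0749). Against WT cells of that phase it was 2.01 higher (SE 0.46, adjusted p = 0.0916). The gene called higher in WT cells was *asp1*, the kinase that makes inositol pyrophosphates, at 8.90, 8.42 and 8.57 for log phase, then 10.23, 9.54 and 10.67 for early stationary phase (1.52, SE 0.29, adjusted p = 8.8e-04). It was also called higher in cells labelled *rpl32-1* (1.06, adjusted p = 0.00752), and in cells labelled *rpl32-2* it changed by 0.52 (adjusted p = 0.187). *gde1*, a glycerophosphodiester phosphodiesterase gene, was the other gene called higher in cells labelled *rpl32-1* (1.15, SE 0.19, adjusted p = 2.1e-04), and its WT change was 0.41 (SE 0.19, adjusted p = 0.0925). The phase changes of these strains differed by 0.74 for *gde1* (SE 0.27, adjusted p = 0.701).

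The probe sets whose level over the 18 arrays was most like that of each gene are given as a description. The points share arrays, groups and normalization, and no test was made. For *thi4* they were the *pho1* probe set (Pearson r = 0.982), *mvd1* of sterol synthesis (0.981) and *hus1*, a subunit of the DNA damage checkpoint clamp (0.971). For *pho4* they were *omh5*, a mannosyltransferase gene (0.983), *his3* of histidine synthesis (0.972) and *pro1* of proline synthesis (0.972). *thi4* and *pho4* themselves correlated at 0.842. None of the 3 nearest probe sets of any gene was another of the 6.

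**Figure D5:**
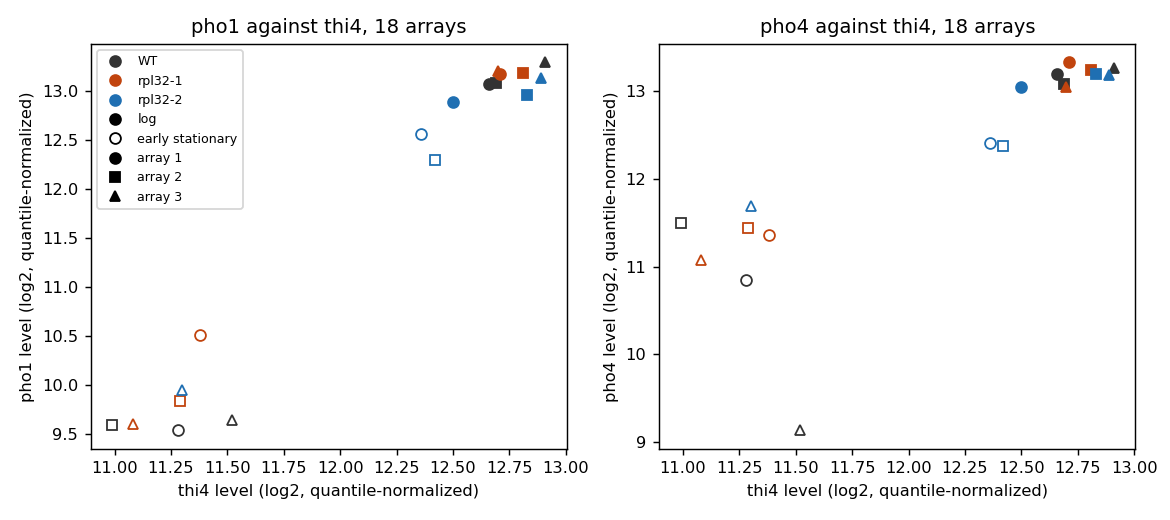
Level of the *pho1* probe set (left) and of *pho4* (right) against *thi4* on the 18 arrays (both axes log2 after quantile normalization; filled symbols log phase, open symbols early stationary phase). In the left panel early stationary phase arrays 1 and 2 labelled *rpl32-2* lie near the log phase arrays and array 3 lies with the other early stationary phase arrays; in the right panel WT early stationary phase array 3 lies lowest, at 9.13 for *pho4*.

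The other 4 genes had other neighbours. *nmt1* was nearest to *mug135* (0.877), *ste11*, the transcription factor of sexual differentiation (0.84), and *rng2*, a scaffold of the cytokinetic ring (0.829). *thi2* was nearest to *psd2* of phospholipid synthesis (0.722), *stt3* (0.658) and *scd2* (0.617). *thi1* was nearest to *sen1*, an RNA helicase gene (0.884), and to *nop14* (0.877) and *utp5* (0.859), which act in ribosome assembly. *thi9* was nearest to *pmr1*, a Golgi cation pump gene (0.894), *rpc1*, the large subunit of RNA polymerase III (0.823), and *mug111* (0.806). *nmt1* moved by 0.28 in all, so its correlations rest on small differences between arrays.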

How the data were processed

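Total RNA of 18 cultures (6 groups of 3) was labelled and hybridised to Affymetrix yeast arrays as a commercial service. By the labels and methods, the authors computed log2 expression values with RMA in Partek and deposited them. The sources used here do not say which arrays were normalized together; single linkage at a mean difference of ranked values of 0.2 gave 5 sets (at most 0.175 within a set, at least 0.274 between sets). The methods' test was a t-test with a 2-fold threshold, which is run here as an alternative. The count of columns without a sample was 0, as was that of identical arrays.

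Of 10928 probe sets, 5538 were named through the platform annotation, 2937 of them of *S. pombe* (2917 with 1 gene and 20 with several; 110 symbols updated from RefSeq). All 2937 were quantile-normalized and fitted; 2601 of *S. cerevisiae*, 166 controls and 5224 unnamed probe sets were left out. A mean per group was fitted in limma 3.58.1 (R 4.3.3, statmod 1.5.0), with 12 residual degrees of freedom. Intervals are 95% intervals of single contrasts, not adjusted. With 3 arrays against 3 an exact permutation test cannot go below p = 0.1, so none was used. Tables and figures were made with Python 3.11.15, numpy 2.4.6, pandas 2.3.3 and matplotlib 3.10.9. The fit was run on simulated data with independent noise and without array sets or dim arrays, so that run does not cover these.

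The members and lists were chosen with earlier results of these data known. Named are the 6 members, all measured genes of the thiamine and vitamin B6 list, called genes of the other lists, the 3 nearest probe sets of each member by Pearson correlation, and *rpl3201*, *rpl3202* and LEU2 as checks; *pda1*, *pdb1*, *ilv1* and the WT value of *gde1* were added after their values were seen. The results were recomputed under 31 other settings chosen in advance of the fit (scaling, variance models, array weights, a replicate block, array sets as a block, a filter at a mean of 5.34 that kept 2871 probe sets, treat at 1.2-fold, and leaving out every array in turn), and 2 more were added after the data were seen. The number of arrays limits the precision.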

Additional observations from a re-analysis of the deposited data

How the results depend on the processing

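Counts of the 6 genes called were computed under 31 other settings and 2 added after the data were seen. In WT cells the main count of 2 became 1 in the deposited values (*thi4* lost), 1 by the methods' t-test (*pho4* lost) and 0 by that test after Benjamini-Hochberg adjustment. In cells labelled *rpl32-1* the count of 2 became 0 in the deposited values, 1 with the array sets as a block and 0 by the adjusted t-test. In cells labelled *rpl32-2* the count of 0 became 1 with the array sets as a block, in normalized and in deposited values. For cells labelled *rpl32-2* against WT cells in early stationary phase it rose from 0 to 2 with array weights, and ran from 0 to 2 with single arrays left out. For cells labelled *rpl32-1* against *rpl32-2* in that phase it rose from 0 to 2 with array weights and to 1 by the t-test, and ran from 0 to 1 with single arrays left out. For the difference of phase changes between cells labelled *rpl32-2* and WT cells it rose from 0 to 2 with array weights, and ran from 0 to 1. Where the count rose to 2 with array weights, the weights called 170, 185 and 217 of all probe sets, in the order given, and equal weights called 0. The weights gave early stationary phase array 3 labelled *rpl32-2* 0.164 and array 2 4.16.

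Of 2340 values of single genes under the alternatives, 2317 kept their side of the threshold, 14 passed it anew and 9 no longer did. Most of the 2340 belong to results that were not called in the main fit, so the 2317 say little about the calls. All 9 losses were phase changes of *thi4* or *pho4* in WT cells or cells labelled *rpl32-1*. None that was called changed sign, and 233 that were called in neither fit had the other sign. Over the experiment the replicate numbers did not pair the arrays: 21 of 45 pairs of same-numbered arrays correlated over 0.1 (from −0.414 to 0.475), with all 3 numbers over 0.1 in 2 of 15 pairs of groups. One of these was WT cells and cells labelled *rpl32-1* in log phase, where the replicate block called 0 of the 6 genes. The replicate block gave 2, 2 and 0 called genes in the 3 strains' phase comparisons and moved no other count of the 6 genes. The t-test could not be run for averaged or differing phase changes, which are not pairs of groups. Over all probe sets the WT count of calls was 553, but 53 in the deposited values, 182 by the t-test, 0 by its adjusted form and 757 with treat against 1.2-fold. For the comparisons between strains, where limma called 0 probe sets, array weights gave 36 (log phase) and 0 (early stationary phase) for cells labelled *rpl32-1* against WT cells, and 17 and 170 for cells labelled *rpl32-2*. For cells labelled *rpl32-1* against *rpl32-2* array weights gave 16 (log phase) and 185 (early stationary phase). The deposited values shifted the median of all WT phase changes to −0.65, and levels near background or near the top of an array are measured with less range.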

Other observations

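Within groups, *nmt1*, *thi1* and *thi9* deviated together. Over the 18 arrays, the deviations from the group means correlated at 0.754 for *nmt1* and *thi1*, 0.786 for *nmt1* and *thi9* and 0.778 for *thi1* and *thi9*, while those of *thi4* and *pho4*, which fell together between phases, correlated at 0.00216. *thi4* deviated against these genes, at −0.523 with *nmt1*, −0.481 with *thi1* and −0.492 with *thi9*. *nmt1*, *thi1* and *thi9* were each lowest of their group on WT early stationary phase array 3 and log phase array 3 labelled *rpl32-1*, the dimmest arrays. They were also lowest on log phase array 1 labelled *rpl32-2*, and highest on early stationary phase array 3 labelled *rpl32-2* (array weight 0.164). The part of array quality was not tested, and these correlations were not computed for other probe sets. The arrays share their normalization and the deviations of *nmt1* are small (residual SD 0.0593), so these values are a description and no test was made.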
